A study of Mus musculus with 6 samples.

Results

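Cytosolic ribosomal protein genes were followed in stimulated CD4+ T cells of young and old mice. They were chosen by symbol: Rpl or Rps followed by a number, Rplp0 to Rplp2, and Rpsa. Of 102 symbols with these prefixes, 88 were kept out of 19977 genes in the table, after the Rps6k kinases, the genes named as pseudogenes and Rps19bp1 were left out. The symbol rule itself uses no measured value, but it was set with earlier results of these data known. The 88 genes comprised 34 of the small subunit, 51 of the large subunit and the 3 stalk genes Rplp0, Rplp1 and Rplp2, with paralogs and retrogene copies counted under their subunit. The filter of a mean FPKM of at least 1 (fragments scaled by transcript length and library total) was passed by 85 of them. Rpl10l and Rpl39l, paralogs of Rpl10 and Rpl39, were below it, and Rps23rg1, a retrogene of Rps23, was at 0 counts in all 6 libraries.

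Both groups were wild-type C57BL/6 mice, 3 libraries from young animals and 3 from old animals of 11 months. The protocol gives the young age as 6 to 8 weeks, which is used here, whereas the sample titles carry a code for 1 month. CD4+ T cells were sorted from spleen and lymph nodes and cultured for 6 hours with antibodies to CD3 and CD28, a stimulus that mimics antigen and costimulation. No unstimulated cells enter the comparison, so every value describes cells after stimulation. Whether the libraries of a group derive from different animals is not stated, and p-values here reflect only the scatter among libraries, some of which may be technical.

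The cytosolic ribosome reads messenger RNA on its small subunit and joins amino acids on its large subunit, and its proteins are made in near equal numbers. Most of their transcripts start with a run of pyrimidines, the terminal oligopyrimidine tract, through which mTORC1 and the binding protein Larp1 set how strongly they are translated. Activation of a resting T cell calls for new ribosomes, and translation of these transcripts is among the processes that it raises. Transcript levels such as those below do not show that control of translation.

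The label of the cells was checked against markers. All 7 markers listed for CD4 T cells (Cd4, Cd3d, Cd3e, Cd3g, Cd28, Cd5 and Lck) passed the filter. Apart from Cd4 they mark T cells in general. Their summed level was 2875 to 3320 CPM in young and 3018 to 3708 CPM in old libraries (CPM, counts scaled to the library total). Summed B cell markers (5 of 6 in the table) lay at 11.6 to 34.2 and 9.72 to 18.0 CPM, myeloid markers (7 of 7) at 25.2 to 46.8 and 13.3 to 27.9 CPM, and CD8 markers (2 of 2) at 16.6 to 27.5 and 11.3 to 14.6 CPM. The 3 NK markers summed to 3.82 to 6.59 CPM in young and 20.6 to 26.95 CPM in old libraries, mostly from Nkg7. Erythroid and platelet markers stayed at or under 4.22 CPM. The part of these cells in any value below was not tested, and in bulk RNA fewer cells of a type and less RNA per cell cannot be told apart.

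Young replicate 1 stood apart from the other libraries. Across all genes tested its log2 levels correlated with those of the other 5 libraries at 0.912 to 0.933, whereas the other pairs of libraries reached 0.946 to 0.986 (genes are not independent replicates). Its B cell sum, 34.2 CPM, was the highest of the 6, followed by old replicate 1 at 18.0 CPM. Its myeloid sum, 46.8 CPM, was also the highest, but young replicate 3 was close at 44.9 CPM. The median, the counts of calls and the share of counts are therefore also given without it, as are the differences of the stalk and subunit genes described one by one. Total expected counts ranged from 16932551 to 18708205 per library, and young replicate 1 had the lowest total.

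A first question for this family is whether reads can be told apart between its genes, since many members have near-identical copies elsewhere in the genome. Rps27, a zinc-binding protein of the small subunit (gene 57294, chr3:90212667-90213648, GRCm38.p6), and its retrogene Rps27rt (gene 100043813, chr9:114982366-114982739) have the same coding sequence, 252 of 252 bases. The starts of both genes, from 25 bases before the RefSeq start site to 25 bases from it, are shown because they mark where the sequence shared by the transcripts begins. The windows, on the minus strand, are chr3:90213624-90213673 for Rps27 and chr9:114982715-114982764 for Rps27rt, and capitals mark a CTTTCC pyrimidine motif at the start.
Rps27: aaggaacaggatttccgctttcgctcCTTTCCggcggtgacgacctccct
Rps27rt: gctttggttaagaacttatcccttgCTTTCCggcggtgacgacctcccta
From the capitals on, the printed letters of both are the same, and before them they differ. The paralog Rps27l has a coding sequence of the same length that matches Rps27 at 192 of 252 bases (76.2%), so its reads can be told apart. Both are shown for that reason, with the 60 differing bases in capitals, and the line for Rps27 is also the coding sequence of Rps27rt.
Rps27: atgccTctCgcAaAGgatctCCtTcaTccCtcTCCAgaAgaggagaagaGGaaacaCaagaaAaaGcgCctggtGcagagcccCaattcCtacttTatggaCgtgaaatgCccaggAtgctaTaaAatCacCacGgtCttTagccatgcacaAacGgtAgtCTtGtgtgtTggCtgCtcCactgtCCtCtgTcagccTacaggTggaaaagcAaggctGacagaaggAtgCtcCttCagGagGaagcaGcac
Rps27l: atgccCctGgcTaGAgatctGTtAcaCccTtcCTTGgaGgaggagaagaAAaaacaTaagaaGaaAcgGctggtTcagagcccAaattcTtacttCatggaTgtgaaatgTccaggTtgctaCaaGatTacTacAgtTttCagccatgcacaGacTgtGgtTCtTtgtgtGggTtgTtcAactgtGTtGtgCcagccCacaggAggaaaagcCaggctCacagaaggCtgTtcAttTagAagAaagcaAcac

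Rps27 was the 1 member flagged for erratic zero counts. Its rounded expected counts were 0, 0 and 2854 in the young and 0, 141 and 4676 in the old libraries. The zeros occurred in both groups, and high values occurred in the libraries numbered 3 of each. Its fitted log2 difference of 0.67 ± 2.48 (SE) therefore carries no direction (adjusted p = 0.967 by edgeR's quasi-likelihood test, Benjamini-Hochberg adjusted). Rps27rt stood at 1109, 1028 and 1105 CPM in young and 1183, 812.2 and 941.2 CPM in old libraries. It was the member with the seventh highest level per length, at a mean FPKM of 2979. The sum of Rps27 and Rps27rt was 1109, 1028 and 1270 CPM in young and 1183, 819.8 and 1197 CPM in old libraries, with groups that overlap. Rps27 took between 0% and 21.4% of that sum, depending on the library. Its coefficient of variation over the 6 libraries (CV, SD over mean) was 156%, and that of the sum 14.6%. The sum had a log2 difference of -0.09 ± 0.21 (SE, edgeR, n = 3 per group).

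Rps6, the small subunit protein that is phosphorylated downstream of mTORC1 (gene 20104, chr4:86854099-86857367), showed the same overlap of sequence in a steadier form. Its 747 coding bases are all found in Rps6-ps4, which the gene table names as a pseudogene. The start of Rps6 (chr4:86857343-86857392, minus strand, 25 bases on each side of the start site) is shown as the gene's own, with the pyrimidine motif CTCTTT in capitals.
Rps6: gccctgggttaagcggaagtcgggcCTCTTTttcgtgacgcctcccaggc
Rps6 itself was listed at 97.8, 146.4 and 133.9 CPM in young and 156.8, 101.9 and 126.3 CPM in old libraries. The values listed under Rps6-ps4 were 1752, 2268 and 3269 CPM in young and 2344, 2210 and 2616 CPM in old libraries. Rps6 thus held 3.94% to 6.27% of the sum in every library, and its low mean FPKM of 91.4 is that of 1 part of a shared sequence. The sum had a log2 difference of -0.02 ± 0.26 (SE, edgeR, n = 3 per group), with overlapping groups.

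**Figure D1:**
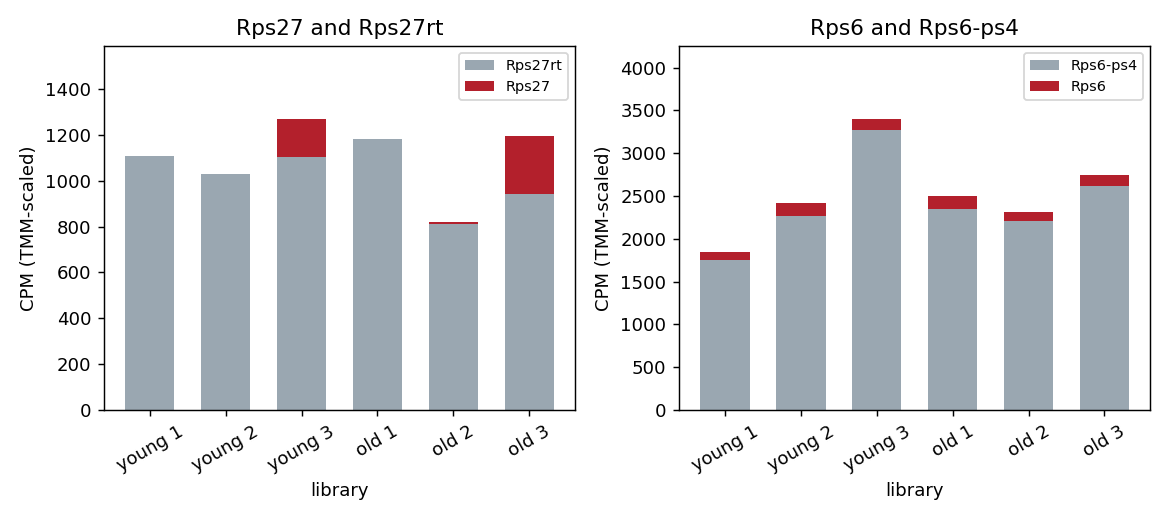
Stacked bars give the level of a ribosomal protein gene and of its near-identical copy in each of the 6 libraries, in CPM (axis from 0). Rps27 is at 0 in 3 libraries while Rps27rt lies between 812.2 and 1183 CPM in all 6, and Rps6 is the small portion of a sum that Rps6-ps4 dominates.

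Copies with a mean count of at least 10, on transcripts of at most 3 times the coding length, were found for 11 members when coding sequences were searched against the transcripts (at least 90% identity over at least 80% of the coding bases). Rpl37, a zinc-binding protein of the large subunit, and its retrogene Rpl37rt differ at 1 of 291 coding bases, G249A, counted from the start codon. The stretch around it is shown because reads within the coding sequence that do not cover that base match both genes, with the differing base in capitals. The transcripts outside the coding sequence were not compared.
Rpl37: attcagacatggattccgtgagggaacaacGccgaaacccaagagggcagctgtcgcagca
Rpl37rt: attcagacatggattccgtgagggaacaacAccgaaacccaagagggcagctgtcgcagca
Rpl37 held 29.4% to 36.1% of the sum of both, which was 455.8, 758.0 and 910.6 CPM in young and 698.5, 577.8 and 677.0 CPM in old libraries. Rpl21 held 58.2% to 60.2% of its sum with the copy Gm10045. The split between member and copy was narrow across libraries for Rpl37 and Rpl21 and wide for Rps27. When the counts of members and their copies were added before the fit, 82 members remained and 0 of them were called, with a median log2 difference of -0.134 against -0.135 for the 85 counted singly.

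Ribosomal protein transcripts were among the most abundant in these cells. Of the 100 genes with the highest mean FPKM, 67 were members. The 85 members past the filter had a median of 1597 FPKM, with 1035 and 2207 FPKM at the quartiles, and 65 of them lay at or above 1000 FPKM. Since these proteins enter the ribosome in near equal numbers, the members far below this level were examined by kind. Rpl3l, a paralog of Rpl3 known from heart and skeletal muscle, had a mean of 1.57 FPKM, and Rpl32l, a retrogene copy of Rpl32, had 5.38 FPKM. Above these stood Rpl7l1 at 80.02 FPKM, Rps6 at 91.4, Rpl22l1 at 128 and Rps27l at 132 FPKM. Rps6 is described above, and the other 5 are paralogs or copies of a more abundant gene. Core genes followed next in the order, with Rps15a at 162, Rpl22 at 218, Rps27 at 220, Rpl37 at 261 and Rps20 at 308 FPKM. Rps27 and Rpl37 share coding sequence with a retrogene, as described above, so their levels too are those of part of a sum. Rps15a, Rpl22 and Rps20 remain as core genes with a low level per length. FPKM divides by transcript length. The GENCODE transcripts matched to Rps15a, Rpl22 and Rps20 are 5179, 2051 and 3706 bases long, against coding lengths of 390, 384 and 357 bases. In CPM, Rps15a lay at 667.6 to 965.6 and Rps20 at 841.0 to 1646 over the libraries. Rps26, among the highest members by FPKM, lay at 1043 to 1650 CPM, and Rpl22 at 309.3 to 710.5 CPM. A low FPKM of Rps15a and Rps20 was thus not a low count.

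The 8 members of highest level per length were Rps2, Rplp1, Rps24, Rpl41, Rpl12, Rps26, Rps27rt and Rplp0, with means from 3600 down to 2825 FPKM. Rps2, a small subunit protein near the messenger RNA entry, ranged from 1953 to 5366 FPKM over the libraries, and Rplp0 from 2402 to 3269 FPKM. The ranges of all 8 overlap one another, so the order of neighbours in that list is not resolved beyond the spread.

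The share of all expected counts of a library that fell on the 88 members was 7.80%, 10.7% and 12.3% in the young and 9.85%, 8.50% and 9.93% in the old libraries. Young replicates 1 and 3 were the lowest and the highest of all 6, and all old libraries lay between them. The mean was 10.3% ± 2.30 in young and 9.42% ± 0.805 in old libraries (SD, n = 3 each), a difference of -0.861 percentage points. An exact two-sided permutation test gave p = 0.5, where 0.1 is the smallest value that 3 against 3 can give. Without young replicate 3 the difference was 0.162 percentage points, so its sign rests on that library, and without young replicate 1 it was -2.1 percentage points (exact permutation p = 0.2). With that library left out, 0.2 is the smallest p the test can give, and the remaining young libraries lay above all old ones. By FPKM the share was 22.3%, 26.7% and 29.5% in young and 25.4%, 23.2% and 25.3% in old libraries, with the same exact permutation p = 0.5. The difference by FPKM was -1.55 percentage points, -3.49 without young replicate 1 and 0.118 without young replicate 3.

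**Figure D2:**
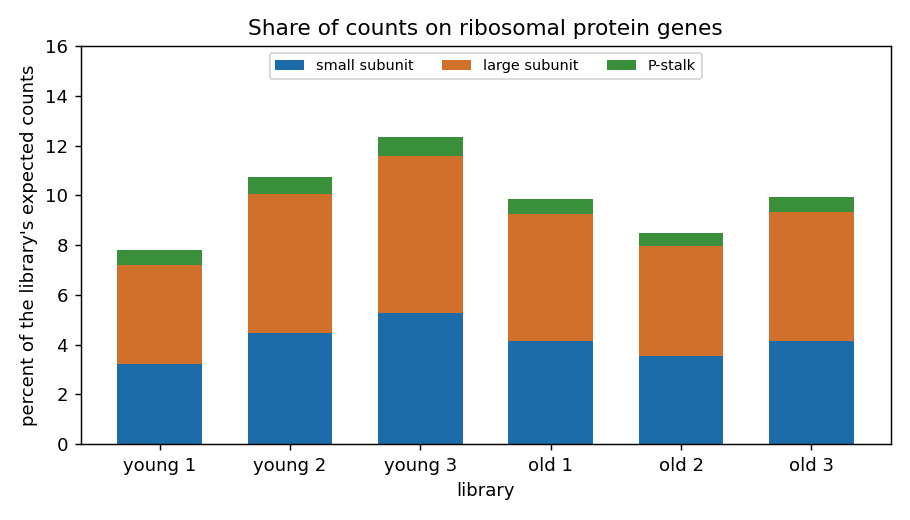
Bars give the percent of each library's expected counts on ribosomal protein genes, split by subunit (axis from 0). The young libraries span 7.80% to 12.3% and enclose the old libraries at 8.50% to 9.93%.

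Both subunits varied alike between libraries. Small subunit genes took 3.22%, 4.46% and 5.28% of counts in young and 4.15%, 3.53% and 4.16% in old libraries (exact permutation p = 0.7). Large subunit genes took 3.99%, 5.58% and 6.29% in young and 5.10%, 4.45% and 5.18% in old libraries (exact permutation p = 0.6). Without young replicate 1 the differences were -0.922 and -1.02 percentage points, against -0.373 and -0.377 with all libraries, and without young replicate 3 both were positive (0.107 and 0.124). The ratio of small subunit counts to those of the large subunit and stalk was 0.703, 0.712 and 0.748 in young and 0.727, 0.712 and 0.722 in old libraries. The groups overlapped, and the ratio differed by less than the spread between the young libraries (exact permutation p = 0.9).

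In the comparison of age, 0 of the 85 members were called by edgeR's quasi-likelihood test, Benjamini-Hochberg adjusted over all genes, against 0.875% of the 10509 genes tested. The same test gave 1 member, Rpl3l, at an unadjusted p under 0.05 (10.6% of all genes, and 3.96% in the same, lower direction). DESeq2 also called 0 members, with 1, lower, at an unadjusted p under 0.05 (5.07% of all genes in that direction), against 4.77% of all genes called. The fitted log2 differences (old minus young) were negative for 73 members and positive for 12, with a median of -0.135, beside a median of -0.0346 and 55.1% negative over all genes tested. By role, 30 of 33 small subunit, 40 of 49 large subunit and 3 of 3 stalk genes were negative, with medians of -0.143, -0.125 and -0.298. Single members share libraries, so these counts are no measure of how often such a shift occurs by chance, and the size of the median is below the spread between libraries given next.

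Levels of the members varied together from library to library. Over 84 members (without Rps27), the median log2 deviation from the mean of the 6 libraries was -0.37, 0.15 and 0.38 in young and 0.01, -0.23 and 0.06 in old libraries. The lowest and the highest library were thus both young. Young replicate 1 was below both other young libraries for 80 of 85 members, against 41.2% of all genes tested, and was the lowest of the 6 for 62 (32.8% of all). Young replicate 3 was the highest of the 6 for 66 members (24.4% of all). Among the old libraries, replicate 2 was the lowest, and 81 of 82 members with a mean of at least 50 FPKM were lower there than in old replicate 1.

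**Figure D3:**
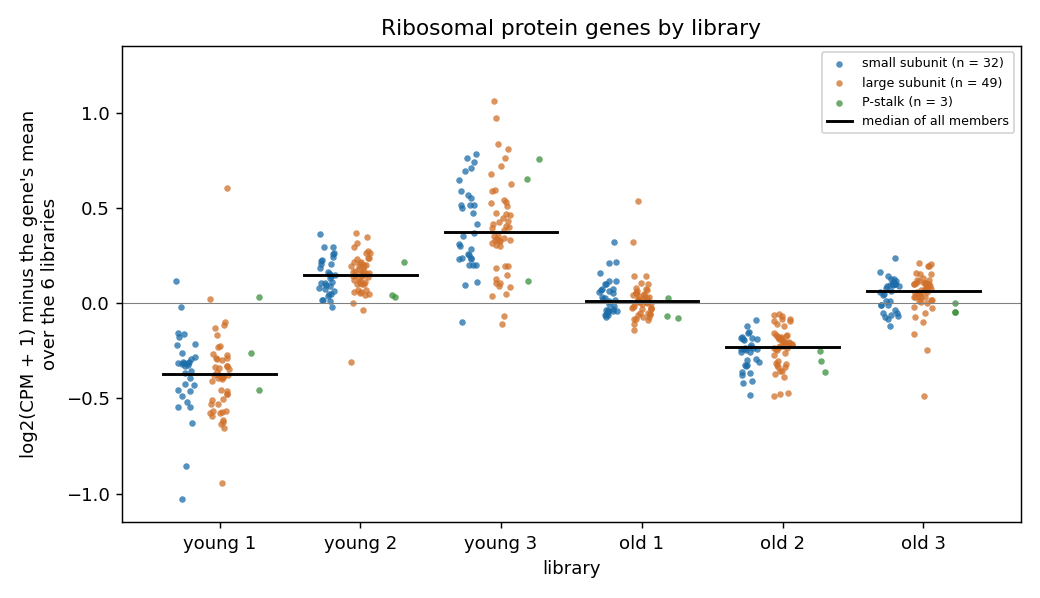
Points give, for 84 members (without Rps27) coloured by role, log2(CPM + 1) in each library minus the gene's mean over the 6 libraries, and lines mark the median of the members. Young replicate 1 has a median of -0.37 and young replicate 3 of 0.38, and the medians of the 3 old libraries lie between them.

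Leaving out 1 library moved the whole family. Without young replicate 1 the median log2 difference was -0.304, and 84 of 85 members were negative, all but Rps27. In that fit 30 members, all lower in old libraries, had an unadjusted p under 0.05 (13.3% of all genes were lower at that level, and 28.1% differed in either direction). None of the 30 was called after Benjamini-Hochberg adjustment in edgeR's quasi-likelihood test, while 8.84% of all genes were. The lowest adjusted p of a member was 0.0528, for Rpl41. The old libraries did not overlap the 2 remaining young libraries for 60 members, all lower in old (23.2% of all genes). Without young replicate 3, by contrast, the median was 0.0421 and 56 members were positive. Leaving out young replicate 2 gave a median of -0.101, and leaving out old replicates 1, 2 or 3 gave -0.163, -0.0537 and -0.184. The sign of the family's median therefore rested on young replicate 3 alone among the 6 libraries.

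**Figure D4:**
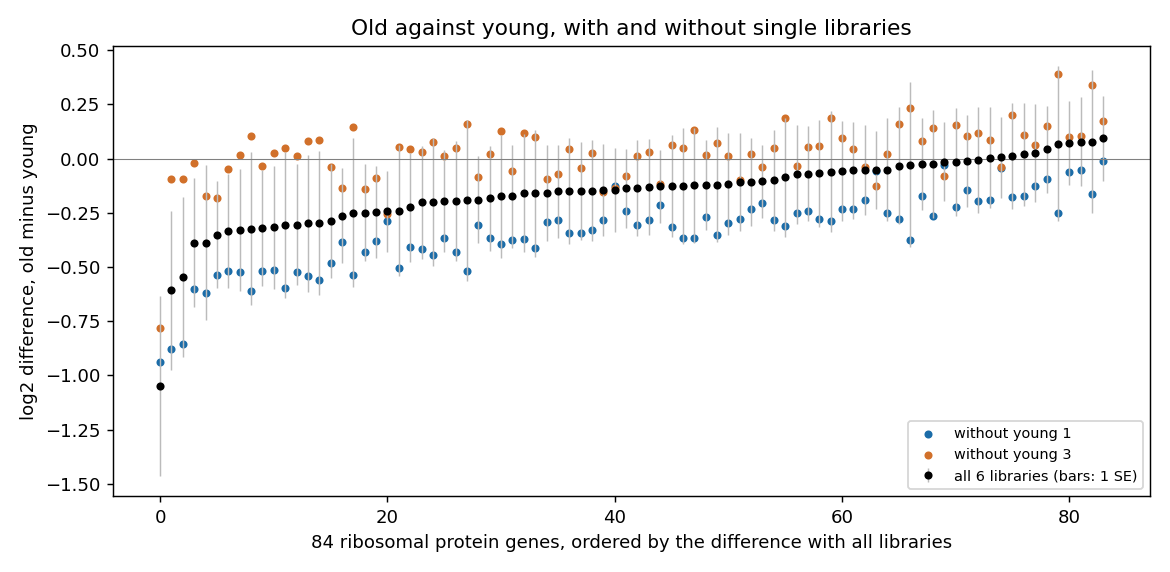
Points give the log2 difference, old minus young, of 84 members (without Rps27) in order of their value with all 6 libraries (black, bars 1 SE), together with the fits without young replicate 1 (blue) and without young replicate 3 (orange). The blue points lie mostly below and the orange points mostly above the black ones, and over all 85 members the medians were -0.304 and 0.0421, against -0.135 with all libraries.

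The stalk genes encode the acidic proteins that recruit translation factors to the ribosome. Rplp0, the protein that anchors the stalk (gene 11837, chr5:115559467-115563729), stood at 3895, 4434 and 4132 CPM in young and 3637, 3205 and 3688 CPM in old libraries. It was the 1 member of 85 whose groups did not overlap, lower in old, where 6.54% of all genes were lower without overlap and 16.4% did not overlap in either direction. No member was higher without overlap (9.9% of all genes). The means were 4154 ± 270 CPM in young and 3510 ± 265 CPM in old libraries (SD, n = 3 each), a log2 difference of -0.24 ± 0.19 (SE) that was not called (adjusted p = 0.764 by edgeR's quasi-likelihood test, Benjamini-Hochberg adjusted). Over the libraries left out in turn it ranged from -0.287 to -0.182, on the same side in all 6 fits.

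Rplp1 and Rplp2 form the dimers bound to Rplp0. Rplp1 stood at 1252, 1551 and 2361 CPM in young and 1422, 1217 and 1454 CPM in old libraries, a log2 difference of -0.33 ± 0.26 (SE). Rplp2 stood at 619.7, 869.8 and 1441 CPM in young and 866.8, 663.0 and 853.4 CPM in old libraries, a difference of -0.30 ± 0.32 (SE). For both, young replicate 3 was the highest library and the groups overlapped, and neither was called. Without young replicate 1 the differences were -0.52 and -0.54, and without young replicate 3 they were -0.05 and 0.08. As a share of counts the 3 stalk genes took 0.589%, 0.683% and 0.762% in young and 0.598%, 0.514% and 0.587% in old libraries (exact permutation p = 0.2), a difference of -0.112 percentage points that became -0.156 without young replicate 1 and -0.0694 without young replicate 3. By FPKM their share did not overlap, at 1.534%, 1.6% and 1.947% in young and 1.503%, 1.368% and 1.469% in old libraries. The exact permutation p of 0.1 is the smallest that this design can give, and the difference of -0.247 percentage points was -0.327 without young replicate 1 and -0.12 without young replicate 3.

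Among small subunit genes, Rpsa, also known as a laminin receptor, was the most counted at 3137, 4828 and 5141 CPM in young and 4380, 4053 and 4606 CPM in old libraries. Young replicate 1 was the lowest, the groups overlapped, and the log2 difference was -0.01 ± 0.24 (SE). Rps2 had 1875, 4055 and 5493 CPM in young and 3304, 3058 and 3634 CPM in old libraries, a difference of -0.19 ± 0.37 (SE). Its lowest and highest libraries were young replicates 1 and 3, with all old libraries between them. Rps24, which takes part in maturation of the small subunit RNA, had 1786, 2293 and 2799 CPM in young and 2086, 1904 and 2289 CPM in old libraries, a difference of -0.13 ± 0.22 (SE). Rps26, at the messenger RNA exit channel, had 1043, 1584 and 1650 CPM in young and 1241, 1095 and 1263 CPM in old libraries, a difference of -0.25 ± 0.22 (SE). For Rps24 the old libraries lay between the lowest and the highest young library, as they did for Rps26. Rps14, a protein of the platform of the small subunit, had one of the 5 most negative fitted values, with 908.1, 1143 and 1943 CPM in young and 1093, 877.2 and 1080 CPM in old libraries. Young replicate 3 exceeded all other libraries, and the difference of -0.39 ± 0.30 (SE) became -0.02 without it. Without young replicate 1 the differences were -0.20 for Rpsa, -0.52 for Rps2, -0.28 for Rps24, -0.43 for Rps26 and -0.60 for Rps14. Without young replicate 3 those of Rpsa, Rps2 and Rps24 were positive (0.12, 0.16 and 0.03), and that of Rps26 was -0.14. None of these 5 genes was called.

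In the large subunit, the most negative fitted values belonged to Rpl3l, Rpl37a, Rpl41 and the copy Rpl32l. The rounded counts of Rpl3l were 92, 44 and 109 in young and 51, 37 and 36 in old libraries. The groups overlapped through young replicate 2. The log2 difference was -1.05 ± 0.42 (SE, adjusted p = 0.42 by edgeR's quasi-likelihood test, Benjamini-Hochberg adjusted), and it was -0.94 without young replicate 1. Rpl32l, which lies within the span of Map7, stood at 2.26, 3.71 and 4.51 CPM in young and 3.22, 2.05 and 2.73 CPM in old libraries. The groups overlapped, with a difference of -0.39 ± 0.36 (SE), which was -0.62 without young replicate 1 and -0.17 without young replicate 3. Rpl32l matches Rpl32 at 96.0% identity over 99.8% of the coding bases. Rpl32 held 99.54% to 99.77% of the sum of both, and that sum had a log2 difference of 0.07 ± 0.19 (SE). Whether reads of Rpl32 were counted under Rpl32l was not tested.

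Rpl37a, a zinc-binding protein (gene 19981, chr1:72711260-72713813), stood at 450.3, 616.8 and 1236 CPM in young and 558.9, 422.1 and 529.5 CPM in old libraries. Rpl41, the smallest ribosomal protein (gene 67945, chr10:128548110-128549168), stood at 874.8, 1530 and 2561 CPM in young and 1280, 1018 and 1098 CPM in old libraries. In both, young replicate 3 was far above every other library and young replicate 1 lay among the old ones or below them. The log2 differences were -0.61 ± 0.37 and -0.55 ± 0.37 (SE), not called. Without young replicate 3 they were -0.09 and -0.10, and without young replicate 1 they were -0.88 and -0.85. The adjusted p without young replicate 1 was 0.0806 for Rpl37a and 0.0528 for Rpl41 by edgeR's quasi-likelihood test, Benjamini-Hochberg adjusted.

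The 5 most positive fitted values were those of Rps27 and of 4 large subunit genes. Rpl5, which carries the 5S RNA to the ribosome and binds Mdm2, had 1528, 1841 and 2006 CPM in young and 1897, 1704 and 2132 CPM in old libraries. Rpl38, linked to translation of Hox transcripts in the embryo, had 239.6, 384.2 and 507.1 CPM in young and 540.9, 287.2 and 366.3 CPM in old libraries. Rpl9 had 883.9, 1244 and 1149 CPM in young and 1191, 984.0 and 1281 CPM in old libraries. The groups overlapped in all 3 of these genes. Rpl32 had 755.9, 1074 and 981.6 CPM in young and 988.3, 902.0 and 1067 CPM in old libraries, which overlap too. The differences of these 4 genes lay between 0.07 ± 0.19 (Rpl32) and 0.09 ± 0.20 (Rpl5), within their standard errors. Without young replicate 1 all 4 were negative, from -0.16 (Rpl38) to -0.0097 (Rpl5). Rpl12, a protein at the base of the stalk, had 1367, 1930 and 2830 CPM in young and 1795, 1614 and 2021 CPM in old libraries. Its difference was -0.17 ± 0.28 (SE), and young replicates 1 and 3 were again the lowest and the highest. It was -0.40 without young replicate 1 and 0.13 without young replicate 3.

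Members differed in how strongly single libraries moved them. Over 82 members with a mean of at least 50 FPKM, young replicate 3 exceeded young replicate 2 in 67, by a median log2 ratio of 0.22 (SD over members 0.285), and by most for Rpl37a, at 1.003. Old replicate 3 against old replicate 1 gave a median of 0.06 and an SD of 0.127. Over the members, log2 levels correlated at 0.997 to 0.998 among the old libraries and between young replicate 2 and each of them. The correlations of young replicate 3 with the libraries other than young replicate 1 were 0.984, and young replicates 1 and 3 correlated at 0.973. The most variable members after Rps27, by CV over the 6 libraries, were Rpl3l (54.2%), Rpl37a (47.6%) and Rpl41 (44.1%).

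Members were also set against coding length, over the 81 with a mean of at least 50 FPKM and an annotated coding sequence, without Rps27. The 9 of them with coding sequences under 300 bases (Rpl37, Rpl37a, Rpl38, Rpl39, Rpl41, Rps21, Rps27rt, Rps28 and Rps29) had a median log2 deviation of 0.50 in young replicate 3 and -0.41 in old replicate 2, against 0.34 and -0.22 for the 72 longer ones. In young replicate 1 the medians were -0.31 and -0.38, with no larger deviation of the short members. Over the 15 pairs of libraries, the Spearman rho between log2 ratio and coding length ranged from -0.411 to 0.596. The highest was that of old replicate 2 against old replicate 1, where Rpl38 had the lowest ratio, -0.91. These values share their libraries and are a description. The part of fragment size or RNA quality in them was not tested.

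Paralogs were set against their parent genes, since a paralog can take the parent's place in the ribosome. Rplp2 and Rplp1, which form dimers together, were added as a pair of partners, to which that reason does not apply. Rpl22l1 (gene 68028, chr3:28805508-28807424) is a paralog of Rpl22, an RNA-binding protein known for its role in T-cell development, and matches it at 66.9% of aligned coding bases. Its counts were 10.4%, 13.3% and 12.8% of those of Rpl22 in young and 17.4%, 14.8% and 14.2% in old libraries. All old libraries exceeded all young ones, by 0.35 on the log2 scale. The exact permutation p of 0.1 is the smallest this design can give, and it was 0.6 after Benjamini-Hochberg adjustment over the 6 pairs tested. Rpl22l1 stood at 32.2, 70.2 and 90.8 CPM in young and 78.9, 55.2 and 68.5 CPM in old libraries (log2 difference 0.07 ± 0.36, SE). Rpl22 stood at 309.3, 526.1 and 710.5 CPM in young and 454.5, 372.3 and 482.5 CPM in old libraries (-0.24 ± 0.30, SE). Each of these genes overlapped between groups by itself. Without young replicate 1 the differences were -0.25 for Rpl22l1 and -0.50 for Rpl22, and the log2 ratio of the pair differed by 0.24.

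The other pairs did not separate the groups. Rps27l, a p53-responsive paralog, had 2.72%, 7.84% and 7.07% of the summed counts of Rps27 and Rps27rt in young and 5.91%, 6.45% and 6.18% in old libraries. Young replicate 1 was lowest of the 6, and the exact permutation p was 1. Rpl36al held 49.5%, 49.4% and 40.3% of the counts of Rpl36a in young and 46.2%, 46.9% and 50.1% in old libraries (exact permutation p = 0.8). Rpl7l1 held 10.9%, 12.9% and 12.9% of Rpl7 in young and 13.2%, 14.4% and 12.2% in old libraries (exact permutation p = 0.4). Both pairs overlapped between the groups. Rpl3l held 0.395%, 0.112% and 0.262% of Rpl3 in young and 0.144%, 0.111% and 0.0934% in old libraries (exact permutation p = 0.2). The counts of Rplp2 were 49.5%, 56.1% and 61.1% of those of its partner Rplp1 in young and 60.9%, 54.5% and 58.7% in old libraries (exact permutation p = 0.7). None of these 6 comparisons passed after adjustment over the pairs.

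**Figure D5:**
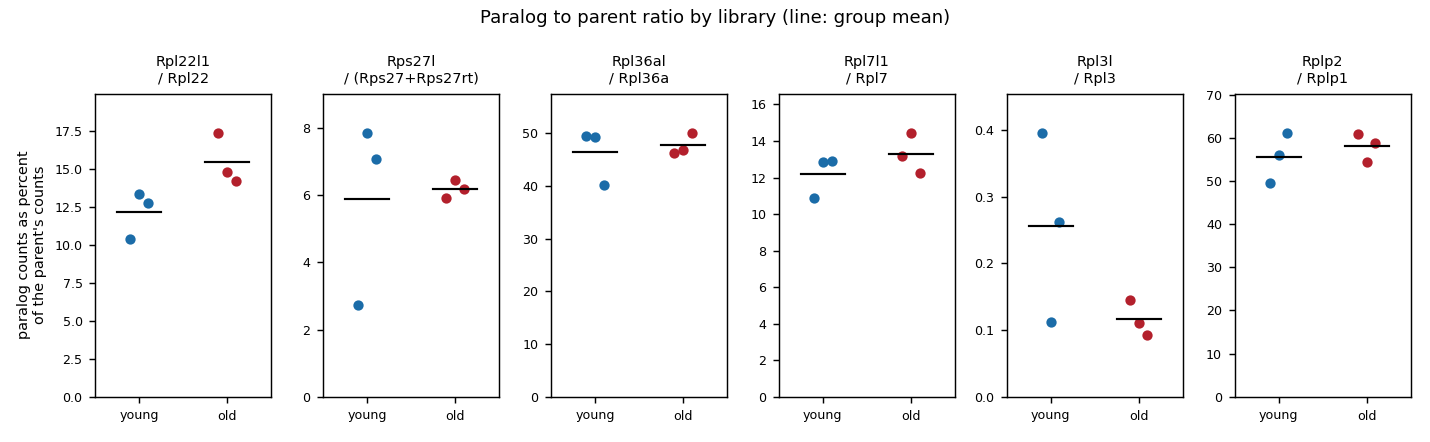
Points give the counts of a paralog as a percent of those of its parent in each library, and for Rplp2 those of its partner Rplp1. Each of the 6 pairs tested has a panel and a linear axis from 0, and lines mark the group means. For Rpl22l1 the 3 old libraries (14.2% to 17.4%) lie above the 3 young ones (10.4% to 13.3%), and the groups overlap in the other pairs.

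The ribosomal protein eS30 is made as a fusion with a ubiquitin-like sequence and falls outside the symbol rule. Fau, which encodes it, stood at 644.5, 730.3 and 1069 CPM in young and 751.9, 612.1 and 748.3 CPM in old libraries (log2 difference -0.21 ± 0.23, SE). The groups overlapped, young replicate 3 was the highest library, and the gene was not called. The difference was -0.35 without young replicate 1 and 0.02 without young replicate 3.

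The rest of the translation apparatus gave 0 calls among 119 measured genes of 6 lists with all libraries by edgeR's quasi-likelihood test, Benjamini-Hochberg adjusted (0.875% of all genes were called). The 10 elongation factors had a median log2 difference of -0.03 with 5 negative, and the 37 initiation factors -0.07 with 23 negative. The 14 chaperones of ribosomal proteins had -0.07 with 9 negative, and the 15 measured other pyrimidine-tract transcripts and ubiquitin fusions -0.11 with 12 negative. Regulators of ribosomal protein translation (23) and ribosome quality control genes (20 of 21 measured) had medians of 0.01 and 0.01. Young replicate 1 lay below both other young libraries for 8 of 10 elongation factors, 33 of 37 initiation factors and 12 of 14 chaperones, for 12 of 15 other pyrimidine-tract transcripts and fusions, and for 11 of 23 regulators and 8 of 20 quality control genes, beside 41.2% of all genes. Without it the medians were -0.25, -0.18 and -0.25 for elongation factors, initiation factors and chaperones and -0.29 for the other pyrimidine-tract transcripts and fusions. Those of the regulators and the quality control genes were 0.0011 and 0.013. That fit called 5 genes of the 6 lists: Eef1d, Eif2b1 and Eif2b4 lower, Vim and Gtpbp2 higher, where 8.84% of all genes were called.

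Single genes of these lists separated the groups without passing the adjusted test. Only a few genes of each list, those of lowest unadjusted p in edgeR's quasi-likelihood test, were examined singly. Picking by p favors genes without overlap. How many of all measured list genes did not overlap was not counted. The 16.4% of all genes tested that did not overlap in either direction therefore cannot be compared with the lists. Among the genes examined, besides those described below, Eif2s2, Eif2ak4 and Ascc2 were higher in old libraries without overlap, and Eefsec was lower. Eif4ebp1, the inhibitor of cap-dependent initiation that mTORC1 inactivates, stood at 99.5, 209.3 and 169.9 CPM in young and 234.6, 244.3 and 246.1 CPM in old libraries. All old libraries were above all young ones, with a log2 difference of 0.60 ± 0.27 (SE, adjusted p = 0.496 by edgeR's quasi-likelihood test, Benjamini-Hochberg adjusted), and of 0.35 without young replicate 1. Eif3f, a subunit of initiation factor 3, stood at 609.1, 496.6 and 556.2 CPM in young and 469.8, 400.3 and 391.4 CPM in old libraries. All old libraries were below all young ones, with a difference of -0.40 ± 0.17 (SE), not called. Hbs1l, which helps release stalled ribosomes, stood at 126.1, 122.1 and 128.1 CPM in young and 94.7, 100.2 and 97.8 CPM in old libraries, again with no overlap, at -0.36 ± 0.13 (SE). Pdcd4, an inhibitor of the helicase of initiation, had 283.9, 134.4 and 176.6 CPM in young and 137.2, 112.0 and 100.3 CPM in old libraries. Young replicate 1 was the highest and young replicate 2 lay just under old replicate 1, so the groups touched. Its difference was -0.77 ± 0.29 (SE), and -0.42 without young replicate 1. Those of Eif3f and Hbs1l were -0.32 and -0.36 without that library.

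Sequence at the start sites, which the symbol rule did not use, was searched for short motifs. RefSeq start sites (GRCm38.p6) were found for 68 members, 80 starts in all, with 250 bases before and 50 bases after each. The letters CTTTCC on the gene's own strand lay within 20 bases of 15% of member starts, against 1.95% of all 32851 starts and 2% of starts of genes past the filter. CTTCCG, the core bound by ETS factors, or its reverse complement CGGAAG lay in the 300 bases of 57.5% of member starts, against 33.3% of starts of genes past the filter and 16.9% of all. The start of Rpl38 (chr11:114668555-114668604, plus strand), whose ratio between old replicates 2 and 1 was the lowest, is shown as an example that holds both, with CTTTCC in capitals.
Rpl38: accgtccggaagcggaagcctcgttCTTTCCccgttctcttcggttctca
A match of letters is a description and not a measured binding site.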

How the data were processed

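Per the labels' protocols, total RNA of sorted CD4+ T cells was sequenced at 3 libraries per age. The authors deposited expected counts and FPKM per RefSeq transcript, per the file headers. Bowtie, RSEM and GRCm38 (mm10) are named, without versions, in the submitters' processing notes, and the strand setting is not given in the sources used here. Reads matching several transcripts are divided among them by RSEM, which bears on genes with copies.

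Values were summed per Entrez gene over 66712 transcripts. Of 19977 genes, 147 had no symbol in the RefSeq table (0.121% to 0.211% of counts). Summed counts were rounded and fitted with edgeR 4.0.16 (quasi-likelihood, TMM factors, R 4.3.3) over genes reaching a mean FPKM of 1, with Benjamini-Hochberg adjustment at 0.05. CPM uses TMM-scaled totals, and SE is the log2 difference over the root of F. The script was tested on simulated data. Copies were sought with blastn 2.17.0 in GENCODE M21 transcripts, and copies on transcripts longer than 3 times the coding length were not summed.

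Named genes were the 5 largest and 5 smallest differences, the 8 highest FPKM, Rpsa, the stalk genes, paralog pairs, erratic members (a lowest library under 0.1 of the median count with a maximum of at least 100) and up to 4 genes per list, of which the text gives some. Members and lists were chosen with earlier results of these data known. Alternatives were another filter, RLE or no factors, TMM factors without members, a replicate block, DESeq2 1.42.0, limma 3.58.1 on log2 FPKM with pseudocounts of 1 and 0.1, and each library left out. Summed copies were added after seeing the data. Some genes are not reported here.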

Additional observations from a re-analysis of the deposited data

How the results depend on the processing

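No member was called under any alternative run. The median over members stayed between -0.147 and -0.0932 under the other filters, factors and tools, and ranged from -0.304 to 0.0421 over the libraries left out, positive without young replicate 3. The difference in share of counts ranged from -2.1 to 0.162 percentage points over the libraries left out. Whether the replicate numbers pair the libraries is not stated. Deviations of same-numbered libraries from their group means correlated at 0.223, -0.0287 and 0.182, and young replicate 2 correlated best with old replicate 3 (0.339). Deviations within a group of 3 depend on one another, so these values cannot decide whether libraries are paired. With the numbers as a replicate block, 119 genes and 0 members were called, the median over members was -0.109, and the differences of Rpsa, Rps27l, Rpl7l1 and Rpl3 changed sign, to 0.0225, 0.0933, 0.026 and 0.0245. The count of all genes called moved from 92 to 501 with DESeq2, to 203 with no filter, to 55 at a mean FPKM of at least 5, and to between 0 and 929 with a library left out. Other sign changes follow. Rpsa became 0.0166 with no filter, 0.00808 with library totals and 0.0346 in limma with either pseudocount, and Rpl3 became 0.00951, 0.00224 and 0.0369. In limma with pseudocounts of 1 and 0.1, Rps27l became 0.116 and 0.118 and Rpl7l1 0.0389 and 0.0399. Rps27 went from 0.67 to -0.0911 with its copy added. Ranges over the libraries left out that cross 0 were, for the large subunit, Rpl32 -0.0601 to 0.179, Rpl9 -0.0544 to 0.178, Rpl38 -0.206 to 0.342, Rpl5 -0.00967 to 0.172, Rpl12 -0.395 to 0.125, Rpl22l1 -0.253 to 0.389, Rpl22 -0.503 to 0.0537, Rpl36al -0.414 to 0.0979, Rpl36a -0.539 to 0.148, Rpl7l1 -0.263 to 0.14, Rpl7 -0.298 to 0.011 and Rpl3 -0.224 to 0.154. For the small subunit and stalk they were Rps2 -0.519 to 0.16, Rps24 -0.283 to 0.0283, Rpsa -0.198 to 0.117, Rps27l -0.377 to 0.234 and Rplp2 -0.541 to 0.0832. Rps27 ranged from -3.83 to 13.6, fitted values that depend on the prior count where young libraries are at 0. For the ratios, Rps27l ranged from -0.269 to 0.495, Rpl36al from -0.0529 to 0.0962 and Rplp2 against Rplp1 from -0.0139 to 0.138, while Rpl22l1 stayed at 0.239 to 0.417. For each of these changes the cause was not tested. Depth limits Rpl3l and Rpl32l, at 36 to 109 and 38 to 78 counts per library, and 3 libraries per group cannot give a permutation p under 0.1.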
